A study of Mus musculus with 3 samples.

Results

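Mural cells wrap the endothelial tube of blood vessels, and they were described here at the tendon injury site of mice. A cell was taken as mural when it held at least 10 UMIs (unique molecular identifiers, each 1 captured mRNA molecule) of *Rgs5*, *Notch3* and *Myh11* together and no UMI of *Ptprc*, *Cdh5* or *Pdgfra*, the leukocyte, endothelial and fibroblast genes of the rule. Members were thus chosen by measured levels of these 6 genes. Tendon cells with 200 or more genes and no more than 20% of UMIs from mitochondrial genes numbered 4978, and 92 of them met this rule, which is 1.85% (exact Clopper-Pearson 95% interval 1.49% to 2.26%). The same filter left 9002 cells in the 3 libraries, among them 1840 of the bone marrow and 2184 of the blood, and no cell of either met the rule. The upper limits for a count of 0 were taken as 3 counts over the cells of a library. They were 0.163% of the bone marrow cells and 0.137% of the blood cells. No single cell of these libraries held more than 1 UMI of the 3 genes.

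The study followed trauma-induced heterotopic ossification (HO), bone that forms outside the skeleton. Male C57BL/6J mice, 10 weeks old, received a burn to the back and a full cut through the Achilles tendon, and unsorted cells were collected 3 days later. The injured tendon, the blood and the bone marrow gave 1 droplet library each (10x Genomics 3' chemistry), and only the tendon was digested with enzymes to free its cells. The tendon library held 5629 cells and 90621052 UMIs with a median of 11082 UMIs per cell, the bone marrow library 1855 cells and 49580625 UMIs, and the blood library 2241 cells and 22542581 UMIs. All mice used here were injured, so no uninjured vessel could be set beside these cells, and how many mice were pooled in a library was not given in the sources used here. With 1 library per tissue and with cells that are not replicates, no test was made, and every interval below covers counting error only.

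Mural cells comprise the pericytes of capillaries and the smooth muscle cells of arteries and veins. Endothelial cells recruit them by secreting PDGF-B, which binds the receptor encoded by *Pdgfrb* on the mural cell, and endothelial Notch ligands act on *Notch3*, a receptor that mural cells carry. Smooth muscle cells narrow the vessel when calcium activates myosin light chain kinase, and they relax when nitric oxide raises cGMP. Pericytes lie inside the basement membrane of the capillary and have fewer contractile filaments, and in muscle and tendon they are known as a perivascular source of matrix and inflammatory signals after injury.

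The 92 mural cells carried 2422370 UMIs in all. A cell held between 1113 and 69409 UMIs with a median of 23899.5, a median of 4311 detected genes and a median of 4.93% mitochondrial UMIs. Levels are given as UMIs per 1000000 UMIs of the same cells (CPM), a scale that does not depend on gene length with 3' counting. Of the rule genes, *Rgs5*, a brake on G protein signaling and a pericyte marker (chr1:169655501-169695813, + strand, GRCm38), stood at 1274 CPM with a UMI in 72 cells. *Notch3* (chr17:32120820-32166852, - strand) stood at 329 CPM in 89 cells, and *Myh11*, the smooth muscle myosin heavy chain (chr16:14194535-14291372, - strand), at 1061 CPM in 89 cells. These 3 genes chose the cells, so their levels are no finding.

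The label was checked on the 2 markers outside the rule. *Acta2*, smooth muscle actin (chr19:34241090-34255590, - strand), stood at 12322 CPM (95% interval 12182 to 12462) with a median over cells of 9144 CPM and quartiles of 3205 and 18088 CPM. *Des*, the intermediate filament desmin (chr1:75360329-75368579, + strand), stood at 534 CPM. After each cell was thinned to 2000 UMIs, which left out 2 mural, 0 endothelial, 1 fibroblast and 18 neutrophil cells, 97.8% of the mural cells kept an *Acta2* UMI against 3.96% of endothelial cells, 12.7% of fibroblasts and 6.54% of neutrophils of the same library. Neutrophils (385 cells with at least 3 *Csf3r* UMIs and with *Cdh5*, *Pdgfra* and *Myh11* at 0) should lack these genes and mark the background of free RNA, and their median depth was 4584 UMIs per cell before thinning. The thinned share for *Des* was 52.2% in mural cells against 0.990% of endothelial cells, 1.89% of fibroblasts and 0.545% of neutrophils, and at full depth 83.7% of mural cells held a *Des* UMI. Both markers outside the rule went with the label. The endothelial cells, fibroblasts and neutrophils were all taken with *Myh11* at 0, so cells with *Myh11* beside these markers could not enter them. How much of the contrast this accounts for was not tested. *Notch3*, which chose the cells, had a thinned share of 54.4% in mural cells and 0 in neutrophils, a description only.

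The rule's threshold lay in a sparse region of cells. Among cells with none of the 3 excluded genes, 6 cells had a sum of 5 to 9 UMIs of the rule genes and pooled *Acta2* at 1312 CPM. The 3 cells with a sum of 10 to 14 pooled to 8692 CPM, but 1 of them held 500 *Acta2* UMIs and the others 42 and 6. The 8 cells with a sum of 15 to 19 pooled to 7493 CPM and the 81 cells with a sum of 20 or more to 12634 CPM. Median *Acta2* UMIs per cell were 18, 42, 14 and 235 in the same order. The pooled levels for sums of 10 to 19 thus rest on few cells, and the medians did not rise steadily below a sum of 20. Of 436 tendon cells with a UMI of any rule gene, 164 cells reached the sum, and 72 of those were left out for an excluded gene, 65 with a *Cdh5* UMI, 10 with a *Ptprc* UMI and 9 with a *Pdgfra* UMI. No mural barcode recurred in another library, and removal of the cells with the highest doublet scores took away 0 mural cells. The rule had already left out the cells with an excluded gene, so this removal says little about mixed droplets among the cells kept.

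**Figure D1:**
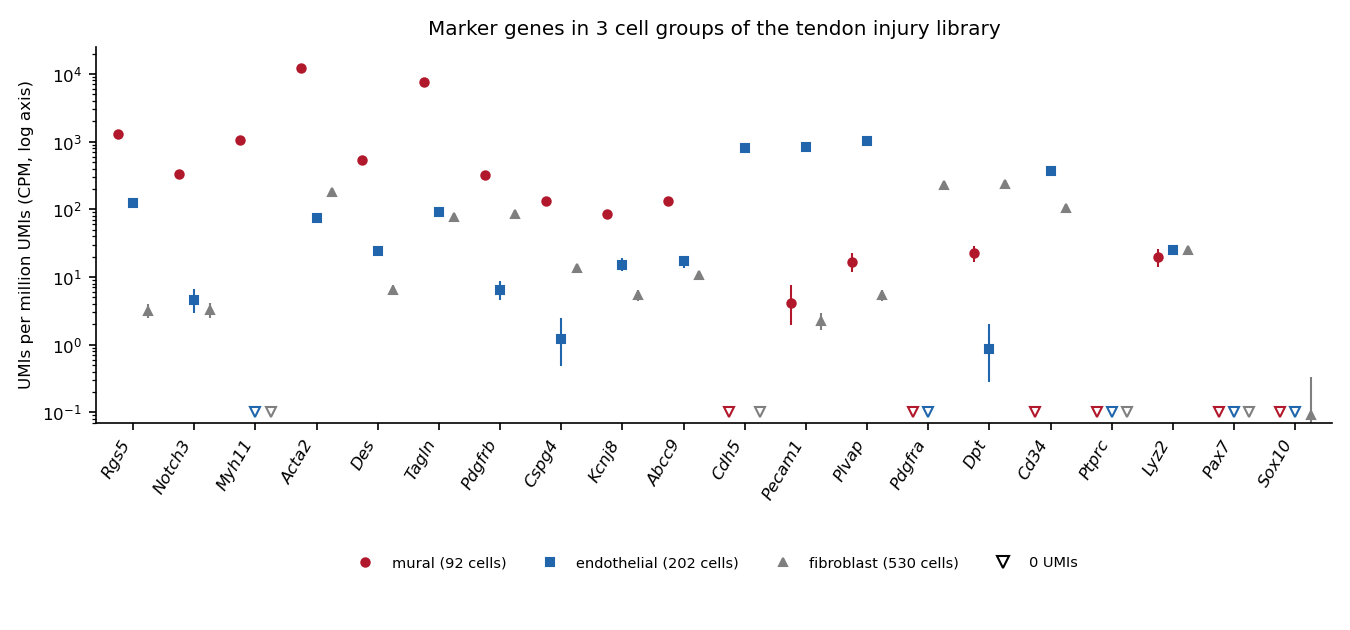
Marker genes in 92 mural, 202 endothelial and 530 fibroblast cells of the tendon injury library, as CPM on a log axis with 95% Poisson intervals; open triangles mark 0 UMIs. *Acta2* at 12322 CPM and *Tagln* at 7574 CPM in mural cells stood far above both other groups, and *Cdh5*, *Pdgfra* and *Ptprc* are at 0 in mural cells by the rule.

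Mural cells were set beside 202 endothelial cells (at least 10 UMIs of *Cdh5*, *Pecam1* and *Cldn5*, with *Ptprc*, *Pdgfra* and *Myh11* at 0; median 22711 UMIs) and 530 fibroblasts (at least 10 UMIs of *Pdgfra*, *Dpt* and *Lum*, with *Ptprc*, *Cdh5* and *Myh11* at 0; median 37884 UMIs). A gene with at least 100 UMIs over both groups was called higher or lower when its CPM ratio was at least 2-fold. Against endothelial cells 627 of 7111 genes were higher (8.82%) and 1030 lower (14.5%), and against fibroblasts 743 of 9713 genes were higher (7.65%) and 1281 lower (13.2%). The median log2 ratio of all genes was -0.17 against endothelial cells and -0.13 against fibroblasts. These shares are the background for the counts of each gene list below. The genes that chose either group of a comparison differ by construction and are left out of its counts. Genes that share cells with *Myh11*, such as the contractile genes, remain in the counts although both comparison groups were taken without it.

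All 20 compared genes of the smooth muscle contractile list were higher in mural cells than in endothelial cells, with a median log2 ratio of 5.44, and all 20 were higher than in fibroblasts, with a median of 6.40. *Tagln*, the actin-binding protein transgelin, stood at 7574 CPM against 92.4 in endothelial cells and 76.0 in fibroblasts. *Tpm2*, a tropomyosin of the thin filament, stood at 3769 CPM against 32.8 and 135 CPM. *Cnn1*, calponin, which damps actomyosin activity, was nearly absent from both other groups, at 356 CPM against 0.173 and 0.737 CPM. *Actg2*, the actin known from enteric smooth muscle, stood at 925 CPM against 0.173 and 0.829 CPM, and *Lmod1*, which nucleates actin filaments, at 318 CPM. *Myl6*, a myosin light chain that other cells also use, separated the groups least of these, at 3326 CPM in mural cells, 1318 in endothelial cells and 894 in fibroblasts.

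Contractile genes are classical targets of serum response factor, which binds a 10-base element named the CArG box, and their promoters are shown because the compared genes of the contractile list were all higher in mural cells than in both other groups. *Ldb3*, a list member with too few UMIs, was not among those compared. Promoters were RefSeq sequences on GRCm38.p6 from 250 bases before to 50 bases after each gene's start, and 20 of the 24 list genes had 23 of them. A CArG box, searched on both strands, was found in 4 of the 23 promoters (17.4%), those of *Ldb3*, *Myl6* and *Myl9*, against 535 of 32851 promoters (1.63%) in all. The *Ldb3* site is a single site in overlapping promoters of that gene and was counted in each of them. An element with exactly 1 of the 6 core bases G or C, counted apart from the CArG box itself, was found in 3 of the 23 (13.0%). These were the promoters of *Acta2*, *Myl9* and *Pcp4l1*, and the share of all promoters was 8.50%. In each of the following 60-base windows the matching letters are in capitals and the strand is that of the gene. A match is a description of the letters and not evidence of binding.
Acta2, chr19:34255423-34255482, 1 core base G or C: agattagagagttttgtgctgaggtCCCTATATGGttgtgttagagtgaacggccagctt
Acta2, chr19:34255373-34255432, 1 core base G or C: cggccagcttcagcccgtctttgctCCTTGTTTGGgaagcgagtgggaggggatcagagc
Myl9, chr2:156775278-156775337, CArG box: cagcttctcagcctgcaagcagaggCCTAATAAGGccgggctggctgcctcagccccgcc
Myl9, chr2:156775340-156775399, 1 core base G or C: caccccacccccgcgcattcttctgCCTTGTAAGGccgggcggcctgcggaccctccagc
Myl6, chr10:128493025-128493084, CArG box: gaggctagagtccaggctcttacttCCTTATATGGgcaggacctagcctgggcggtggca
Ldb3, chr14:34588682-34588741, CArG box: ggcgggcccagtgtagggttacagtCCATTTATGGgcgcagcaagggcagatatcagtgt
Pcp4l1, chr1:171196350-171196409, 1 core base G or C: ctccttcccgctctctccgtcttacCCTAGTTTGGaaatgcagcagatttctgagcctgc

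Of 12 compared pericyte markers, 11 were higher in mural cells than in endothelial cells (median log2 ratio 3.73) and none was lower; against fibroblasts 11 of 13 were higher (median 3.30) and 2 were lower. *Pdgfrb*, the receptor for PDGF-B, stood at 319 CPM against 6.42 in endothelial cells and 84.8 in fibroblasts. *Cspg4*, the NG2 proteoglycan, stood at 133 CPM against 1.21 and 13.5 CPM. *Gm13889*, a gene of unsettled function, had the most UMIs of the list, at 1383 CPM against 22.2 and 13.9 CPM. *Ndufa4l2*, a mitochondrial protein known to respond to low oxygen, stood at 484 CPM against 8.67 and 131 CPM. The members lower than in fibroblasts were *Anpep* and *Steap4*, and *Steap4* passed 2-fold only in pooled UMIs (log2 ratio -1.33, and -0.46 with each cell weighted equally).

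*Kcnj8* and *Abcc9* encode the pore and the regulatory subunit of the vascular KATP channel, which opens when ATP falls and relaxes the cell. They are neighbors on chromosome 6, *Kcnj8* at chr6:142564837-142571614 and *Abcc9* at chr6:142587862-142702315, both on the - strand. *Kcnj8* stood at 85.0 CPM in mural cells against 15.3 in endothelial cells and 5.39 in fibroblasts, and *Abcc9* at 133 CPM against 17.0 and 10.7 CPM. At full depth 40 mural cells held a *Kcnj8* UMI and 56 an *Abcc9* UMI. After thinning, 32.2% of mural cells held a UMI of either gene, against 5.94% of endothelial cells, 3.97% of fibroblasts and 0.545% of neutrophils.

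Notch genes split between the 2 sides of the vessel wall. Of 12 compared Notch pathway genes, 2 were higher in mural than in endothelial cells and 6 were lower, with a median log2 ratio of -1.35; against fibroblasts 4 of 9 were higher and none was lower. Among ligands, *Dll4* was at 0 UMIs in mural cells and at 65.9 CPM in endothelial cells, whereas *Jag1* was higher in mural cells, at 104 CPM against 23.8 in endothelial cells and 13.2 in fibroblasts. Among receptors, *Notch1* was lower in mural cells, at 32.6 CPM against 121 CPM in endothelial cells. Among targets, *Heyl*, a repressor induced by Notch3 in mural cells, stood at 47.5 CPM against 0.347 and 2.40 CPM. *Nrarp*, a feedback inhibitor of Notch, stood at 110.2 CPM in mural cells, 61.9 in endothelial cells and 0.875 in fibroblasts. The letters TGGGAA or their complement TTCCCA, the core of the RBPJ motif through which Notch acts, were in 5 of 17 promoters of 14 Notch list genes (29.4%), against 25.6% of all promoters. The share was 41.2% (7 of 17) for the pericyte markers, *Kcnj8* and *Abcc9* among them, and 17.4% (4 of 23) for the contractile genes, where the match in *Acta2* overlaps the element in the second *Acta2* window above.

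In the PDGF pathway the ligand and receptor levels lay on opposite sides. *Pdgfb* stood at 10.3 CPM in mural cells and at 83.8 CPM in endothelial cells (log2 ratio -3.02, interval -3.66 to -2.44), and its receptor *Pdgfrb* showed the reverse order (log2 ratio 5.63). *Pdgfa*, whose main receptor *Pdgfra* is the fibroblast gene of the rule, was highest in mural cells, at 531 CPM against 64.3 in endothelial cells and 25.5 in fibroblasts. Of 11 compared VEGF and angiopoietin genes, 1 was higher in mural than in endothelial cells and 6 were lower (median -2.14). *Kdr* and *Tek*, the endothelial receptors for VEGF-A and the angiopoietins, were at 0 UMIs in mural cells. *Flt1*, a VEGF receptor that also acts as a decoy, stood at 88.8 CPM in mural cells, 433 in endothelial cells and 0.783 in fibroblasts.

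**Figure D2:**
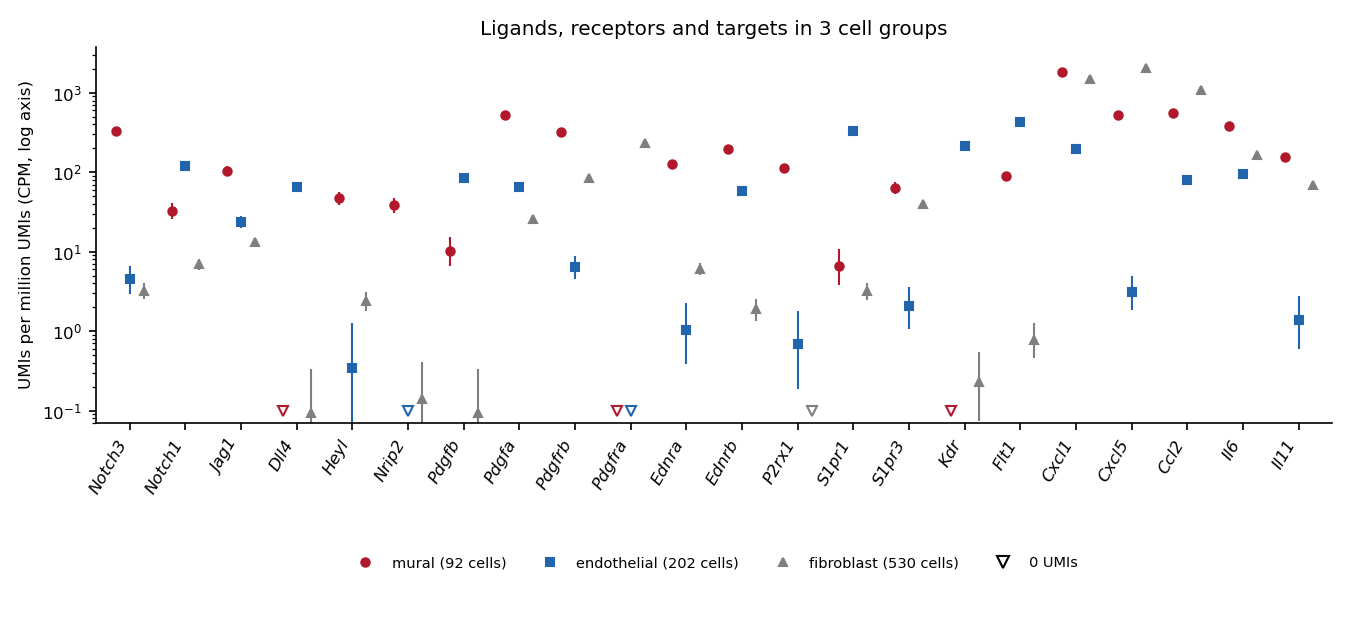
Ligands, receptors and targets in mural, endothelial and fibroblast cells, as CPM on a log axis with 95% Poisson intervals; open triangles mark 0 UMIs. *Dll4*, *Pdgfb*, *S1pr1* and *Kdr* lie highest in endothelial cells, *Notch3*, *Jag1*, *Pdgfa*, *Pdgfrb*, *Ednra* and *P2rx1* highest in mural cells, and *Cxcl5* highest in fibroblasts; *Notch3* is a gene of the rule, so its place is a description only.

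Among 10 compared vasoactive receptors 6 were higher in mural than in endothelial cells and 4 were lower (median log2 ratio 3.08), and against fibroblasts 9 of 16 were higher and 3 lower (median 1.28). *Ednra* and *Ednrb* encode the endothelin receptors. *Ednra* stood at 128 CPM against 1.04 in endothelial cells and 6.08 in fibroblasts, and *Ednrb* at 195 CPM against 57.6 and 1.89 CPM. *P2rx1*, the ATP-gated cation channel through which sympathetic ATP contracts small arteries, stood at 114 CPM against 0.694 CPM and 0 UMIs in fibroblasts. *Ramp1*, a subunit of the receptor for the vasodilator CGRP, stood at 177 CPM against 0.173 and 6.50 CPM. The sphingosine phosphate receptors split, with *S1pr1* at 6.61 CPM in mural and 332 CPM in endothelial cells, and *S1pr3* at 63.6 and 2.08 CPM.

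Genes of calcium handling and of myosin phosphorylation were higher as well. Of the ion channel and calcium list, 8 of 9 compared genes were higher than in endothelial cells (median 2.97) and 10 of 12 higher than in fibroblasts (median 2.96), and none was lower. *Pln*, phospholamban, which restrains the calcium pump of the sarcoplasmic reticulum, stood at 46.6 CPM, and *Kcnk3*, a background potassium channel, at 80.9 CPM. Of the myosin phosphorylation and cGMP list, 12 of 18 genes were higher than in endothelial cells (median 3.79) with *Rgs3* lower, and 15 of 19 were higher than in fibroblasts (median 2.88), again with *Rgs3* lower. *Mylk*, myosin light chain kinase, stood at 1051 CPM against 43.2 and 12.5 CPM. On the relaxing side, *Gucy1a3*, a subunit of the nitric oxide receptor, stood at 186 CPM. *Pde3a*, which breaks down cyclic nucleotides and so works against that side, stood at 211 CPM.

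Of 21 transcription factors known in mural cells, 6 were higher and 3 lower than in endothelial cells, and the median of 0.11 lay near that of all genes. Against fibroblasts 10 of 25 were higher and 1 was lower. *Myocd*, the coactivator of serum response factor that drives smooth muscle genes, stood at 56.1 CPM against 0.173 CPM in endothelial cells and 0 UMIs in fibroblasts. *Prrx1*, a homeobox factor of limb mesenchyme, stood at 464 CPM against 2.43 in endothelial cells and 308 in fibroblasts. *Srf* itself was called higher than in fibroblasts only at the edge (log2 ratio 1.01), and 6 alternatives brought it under 2-fold, with values from 0.92 to 0.99.

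Matrix genes placed mural cells between endothelial cells and fibroblasts. Of 28 compared genes of interstitial matrix and crosslinking, 23 were higher than in endothelial cells (median log2 ratio 4.05) and 2 were lower, while against fibroblasts 3 of 30 were higher and 20 lower (median -1.56). *Col1a1*, the main fibrillar collagen of tendon, stood at 1874 CPM in mural cells, 10.8 in endothelial cells and 5194 in fibroblasts. *Col3a1*, the collagen of early repair, stood at 3378 CPM, 19.1 CPM and 7196 CPM in the same order. The members higher than in fibroblasts were *Sparcl1*, *Thbs1* at 648 CPM against 197, and *Col6a3*, a chain of the microfibrillar collagen VI, at 792 CPM against 328 CPM. Part of the matrix signal lay in few cells: 3 cells held 57.4% of all mural *Dcn* UMIs, 88.3% of the *Lum* UMIs and 52.3% of the *Mgp* UMIs.

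Basement membrane genes showed another order. Of 15 compared, 3 were higher and 2 lower than in endothelial cells (median 0.35), and 9 of 17 were higher and 2 lower than in fibroblasts (median 1.13). *Col4a1*, a chain of the network collagen IV, stood at 1325 CPM in mural cells, 1038 in endothelial cells and 249 in fibroblasts. *Col18a1*, the source of endostatin, stood at 690.2 CPM against 385 and 15.7 CPM, and *Ntn4*, a netrin that binds laminin, at 104 CPM against 3.99 and 12.8 CPM. Of the TGF-β and BMP list, 6 of 18 genes were higher and 6 lower than in endothelial cells, and 5 of 22 were higher and 7 lower than in fibroblasts. Its ligand *Tgfb3* stood at 101 CPM against 2.43 and 33.7 CPM. Of proteases and inhibitors, *Mmp3*, abundant in fibroblasts at 842 CPM, stood at 0.826 CPM in mural cells.

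Chemokines and cytokines of mural cells were mostly higher than in endothelial cells and mostly lower than in fibroblasts. Of 14 compared chemokines and cytokines, 9 were higher and 4 lower than in endothelial cells (median 2.23), while 5 of 19 were higher and 10 lower than in fibroblasts (median -1.04). *Cxcl1*, which recruits neutrophils, was the most abundant at 1839 CPM, against 197 in endothelial cells and 1505 in fibroblasts. *Cxcl1* was also broad: 71.1% of thinned mural cells held a UMI (87.0% at full depth), against 23.3% of endothelial cells, 70.5% of fibroblasts and 13.4% of neutrophils. *Cxcl5*, another neutrophil attractant, was narrow, with 13.3% of thinned mural cells (32.6% at full depth) against 0.990% of endothelial cells, 49.5% of fibroblasts and 2.18% of neutrophils. Its level was 524 CPM in mural cells and 2040.3 CPM in fibroblasts, and 3 mural cells held 66.7% of its UMIs.

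*Ccl2*, the monocyte attractant, stood at 554 CPM in mural cells, 81.0 in endothelial cells and 1075 in fibroblasts. *Il6* was higher in mural cells than in either, at 384 CPM against 94.0 and 166 CPM, with 34.4% of thinned mural cells (66.3% at full depth), 11.9% of endothelial cells, 25.0% of fibroblasts and 0.272% of neutrophils holding a UMI. Its ratio to fibroblasts was 1.21 on the log2 scale and 0.97 with each cell weighted equally, just under 2-fold. *Il11*, a cytokine of the same family, stood at 158 CPM against 1.39 and 68.1 CPM, and 3 cells held 58.9% of its UMIs. Its ratio to fibroblasts was 1.21, and 0.49 without the cell with the most UMIs. Some genes abundant in fibroblasts were scarce in mural cells: *Saa3*, an acute phase protein, stood at 2.48 CPM against 1602 in fibroblasts and 3.99 in endothelial cells, and the chemokine *Cxcl14* at 3.30 CPM against 3342 and 6.59 CPM.

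Of cytokine receptors and feedback genes of NF-kB, 3 of 18 were higher and 5 lower than in endothelial cells, and 0 of 26 were higher and 11 lower than in fibroblasts. *Il1r1*, the receptor for interleukin 1, stood at 301 CPM against 71.6 in endothelial cells and 196 in fibroblasts. Of the interferon-stimulated genes, 8 of 11 were lower than in endothelial cells (median -1.36) and none was higher, with *H2-D1*, an MHC class I heavy chain, at 131 against 723 CPM. Against fibroblasts 4 of 15 were lower and 1 was higher (median -0.25), *Bst2*, which tethers budding virus, at a log2 ratio of 1.06 that was 0.66 with each cell weighted equally. Of the hypoxia and glycolysis genes, 1 of 14 was higher and 1 lower than in endothelial cells, and 1 of 16 was higher and 6 lower than in fibroblasts (median -0.76). Of the immediate early and stress genes, 6 of 24 were higher and none lower than in endothelial cells (median 0.09), and 6 of 25 were higher and 1 lower than in fibroblasts (median 0.31). *Hspa1a*, an inducible heat shock protein, stood at 165 CPM against 29.8 and 31.1 CPM. *Gadd45b*, induced by stress and damage, stood at 535 CPM against 128 and 198 CPM, and *Nr4a1*, an immediate early nuclear receptor, at 309 CPM against 88.6 and 143 CPM. Among junction genes, *Gja1*, connexin 43, stood at 0.413 CPM in mural cells against 205 and 215 CPM, whereas *Gjc1*, connexin 45, stood at 133 CPM against 25.1 and 25.2 CPM. *Itga7* and *Itga1*, integrin chains that bind laminin and collagen, stood at 65.2 and 142 CPM against 3.64 and 41.4 CPM in endothelial cells. The ratio for *Itga1* fell under 2-fold with cells weighted equally (0.90 in place of 1.78). Cell cycle genes showed a median of -0.44 and -0.31, and 17.8% of thinned mural cells held a *Mki67* or *Top2a* UMI (32.6% at full depth), against 15.8% of endothelial cells, 19.1% of fibroblasts and 3.27% of neutrophils.

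Among genes with at least 100 UMIs in mural cells and a UMI in at least 20% of them, a limit that favors genes high in these cells, the 15 that set mural cells apart from both neighbors most, by the smaller of the 2 ratios, were *Actg2*, *Cnn1*, *Myocd*, *Pln*, *Olfr558*, *Myom1*, *P2rx1*, *Synpo2*, *Kcnk3*, *Map3k7cl*, *Lmod1*, *Sh3bgr*, *Slc11a1*, *Tagln* and *Mrvi1*. On the contractile list were 7 of the 15 (*Actg2*, *Cnn1*, *Lmod1*, *Map3k7cl*, *Pln*, *Synpo2* and *Tagln*). Outside it, *Myom1*, myomesin of the sarcomere M band, stood at 64.0 CPM against 0.173 and 0.322 CPM, and on it *Synpo2*, an actin bundler, at 137 CPM against 0.867 and 0.645 CPM. *Olfr558*, an olfactory receptor gene, stood at 70.2 CPM. *Slc11a1*, a metal transporter best known from the phagosomes of macrophages, stood at 142 CPM in mural cells against 0.347 and 1.70 CPM. *Lyz2*, an abundant macrophage gene, stood at 19.4 CPM in the same cells, 25.0 CPM in endothelial cells and 24.8 CPM in fibroblasts.

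**Figure D3:**
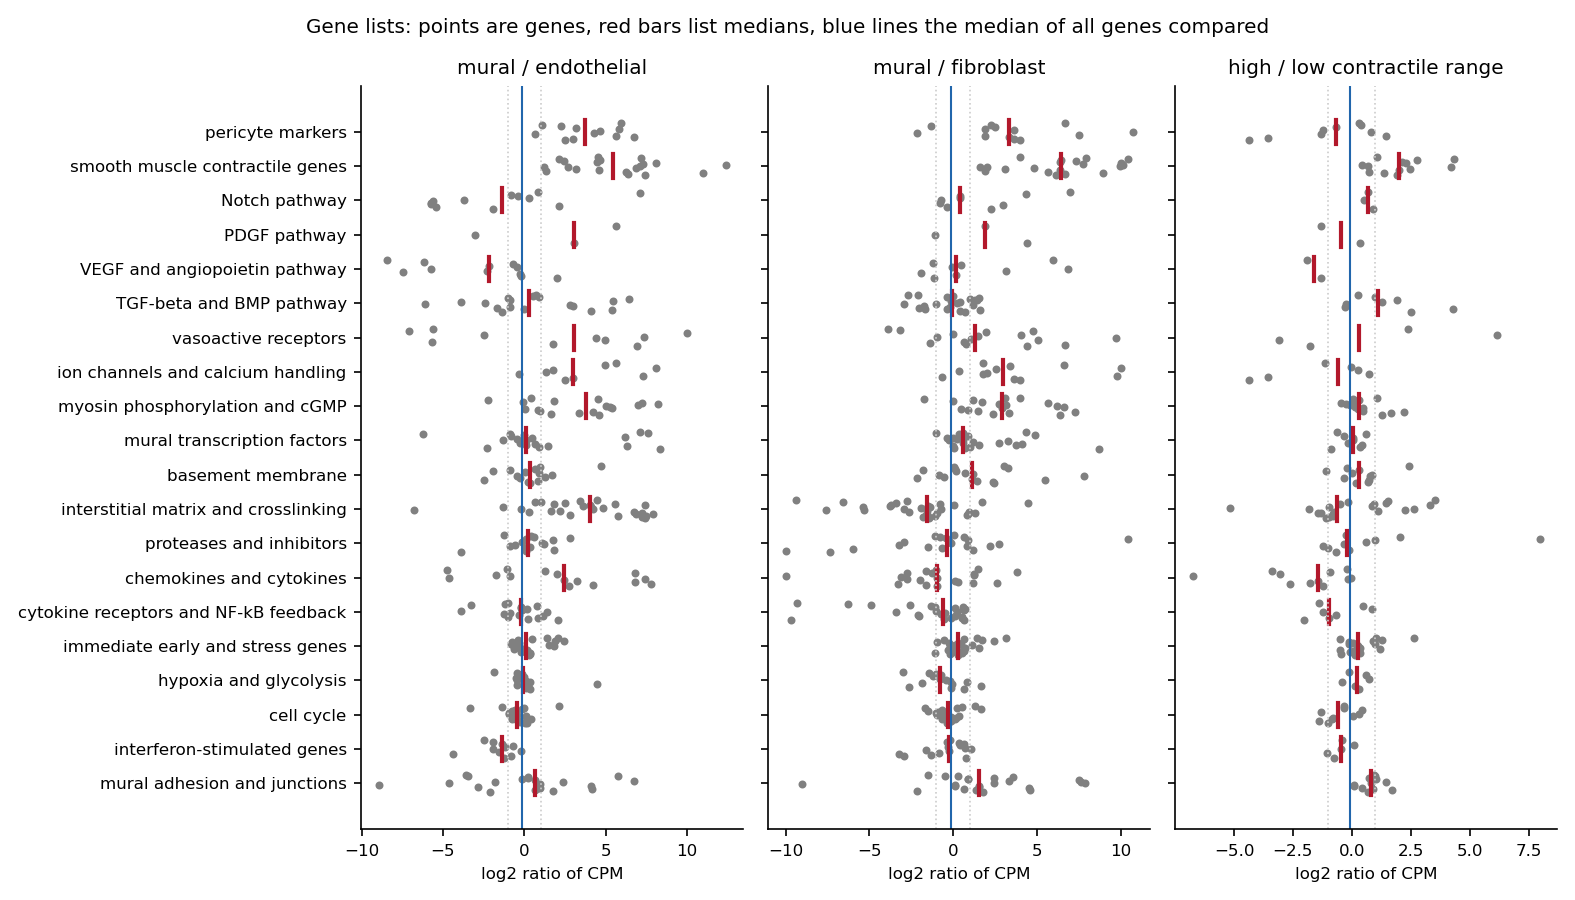
Log2 CPM ratios of the genes of 20 lists for mural to endothelial cells, mural cells to fibroblasts, and the high to the low contractile range of mural cells. Gray points are genes with at least 100 UMIs over both groups, genes at 0 UMIs in 1 group stand at their bound, red bars are list medians, blue lines are the median of all genes compared, and dotted lines mark 2-fold; the median of contractile genes lies to the right in all 3 panels and that of chemokines to the left in the third.

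The mural cells differed widely among themselves. The share of a cell's UMIs in *Acta2*, *Tagln*, *Myl9*, *Tpm2*, *Cnn1* and *Mylk* ran from 0.0898% to 10.8% with a median of 1.89%. The 92 cells were ordered by this share and divided into a low range of 31 cells, a middle range of 31 cells and a high range of 30 cells, divided at 1.03% and 3.40%. Shares were continuous, with 13 and 15 cells within 20% of these values, so the ranges are parts of a score and not cell types. Median UMIs per cell were 18896, 28222 and 23053.5 from the low to the high range. Of 1954 genes with at least 100 UMIs over the high and low ranges, 139 were at least 2-fold higher in the high range (7.11%) and 92 lower (4.71%), with a median log2 ratio of -0.07. The split turned to 121 higher and 138 lower when mitochondrial and ribosomal protein genes were left out of the total, to 182 and 221 when cells were ordered by *Myh11* alone, and to 396 and 706 with a minimum of 20 UMIs.

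Most contractile genes outside the score and the rule followed the score. Of 13 compared, 10 were higher in the high range and none was lower in pooled UMIs (median 1.98). *Actg2* stood at 126, 358 and 2358 CPM from the low to the high range (log2 ratio 4.22, interval 3.92 to 4.55), with a UMI in 14 of 31, 19 of 31 and 21 of 30 cells. The level of *Actg2* thus differed more between the ranges than the number of cells with a UMI, and 9 cells of the high range held none. *Pln* stood at 0 UMIs, 30.6 and 109 CPM, with too few UMIs to be among the 13. *Myh11*, a gene of the rule and thus a description only, stood at 375, 770.2 and 2048 CPM. *Rgs4*, a relative of *Rgs5*, was higher in the high range in pooled UMIs (log2 ratio 1.08) and lower with each cell weighted equally (-0.30), so its direction depends on the weighting.

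Pericyte markers were split along the score. Of 9 compared, 4 were lower in the high range (*Abcc9*, *Higd1b*, *Kcnj8* and *Pdgfrb*) and *Cspg4* was higher. *Kcnj8* stood at 162, 90.6 and 7.81 CPM from low to high (log2 ratio -4.37, interval -5.85 to -3.21), with a UMI in 20, 16 and 4 cells. *Abcc9* stood at 233, 152 and 19.5 CPM (log2 ratio -3.58), with a UMI in 26, 20 and 10 cells. Both subunits of the channel thus lay mostly in the low and middle ranges. *Pdgfrb* stood at 457, 325 and 185 CPM, and its ratio of -1.31 became -0.84 with cells ordered by *Myh11* alone. *Higd1b* had a ratio of -1.22, which became -0.76 with the cells in 2 equal parts, -0.50 with cells ordered by *Myh11* alone and -0.85 without the cell that held the most of its UMIs. *Cspg4* stood at 70.9, 129.6 and 193 CPM with a UMI in 3, 15 and 23 cells (log2 ratio 1.44). A single cell held 35 of its 50 low-range UMIs, and the ratio without that cell was 3.04. *Rgs5*, a gene of the rule, stood at 2301, 1042 and 619 CPM with a UMI in 30, 27 and 15 cells. The other 15 cells of the high range entered without an *Rgs5* UMI, and cells of the low range could enter with little *Myh11*, since the rule admits both kinds. A cell with little of both *Rgs5* and *Myh11* could hardly enter. How far this choice of cells shaped the order of *Kcnj8*, *Abcc9* and the other pericyte markers along the score was not tested.

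**Figure D4:**
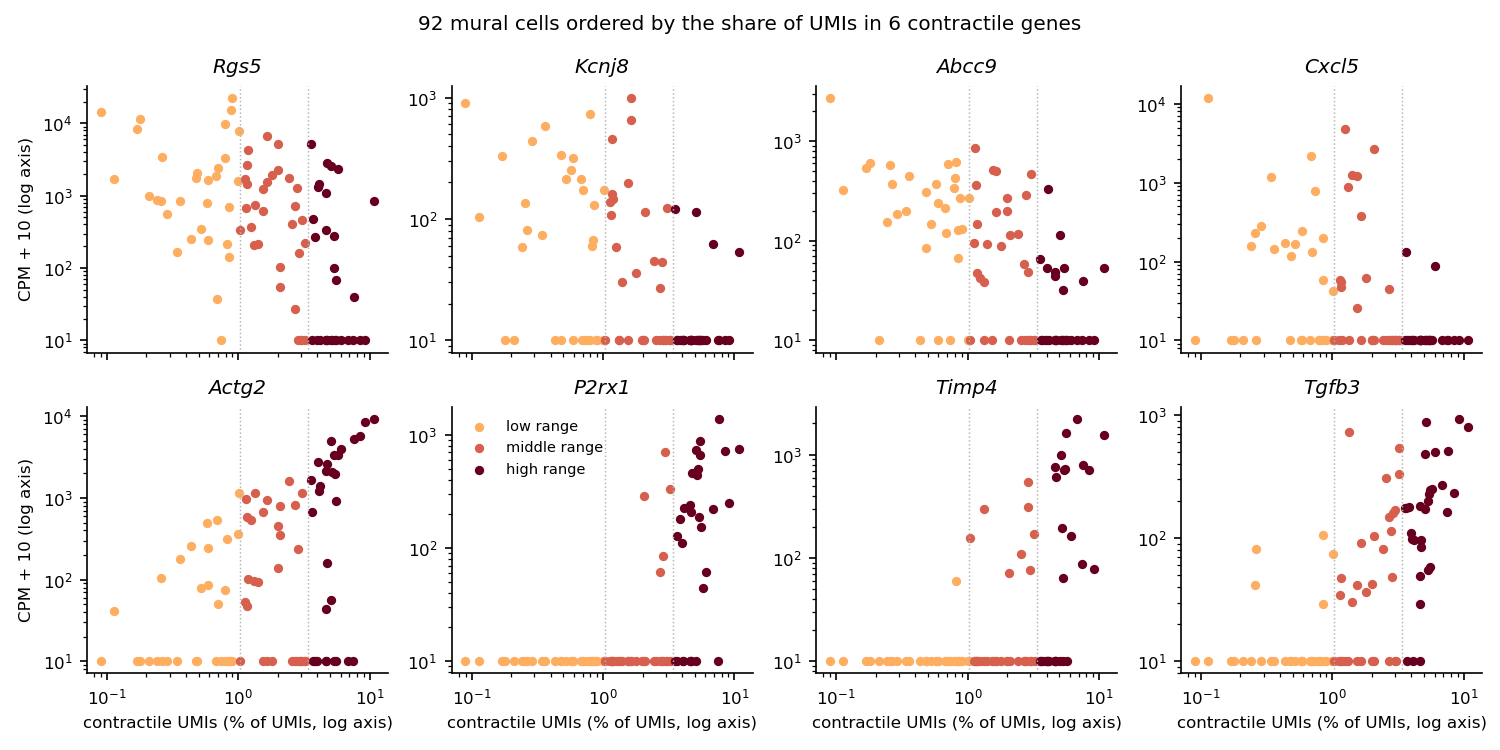
Each point is 1 of the 92 mural cells, placed by its share of UMIs in the 6 score genes (percent, log axis) and its level of the named gene (CPM + 10, log axis); dotted lines divide the low, middle and high ranges. *Kcnj8* has a UMI in 20 low-range and 4 high-range cells, and *P2rx1* in 0 low-range and 21 high-range cells.

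Vasoactive receptors divided along the same axis, though only 4 of the 28 on the list had enough UMIs to be compared. Of these, 2 were higher in the high range and 2 were lower. *P2rx1* had no UMI in the low range, 42.1 CPM in the middle range and 306 CPM in the high range, a log2 ratio of at least 6.17, with a UMI in 0, 5 and 21 cells. *Ramp1* was also higher in the high range (log2 ratio 2.37). *Ednrb* stood at 390.1, 172 and 45.5 CPM (log2 ratio -3.10, interval -3.65 to -2.59), and *Ednra* at 194, 138 and 56.0 CPM (log2 ratio -1.80). For *Ednra* the ratio was -0.73 with cells ordered by *Myh11* alone. *P2rx1* and *Ramp1* thus lay with the contractile genes, and both endothelin receptor genes with the low range. *Calcrl*, the receptor that *Ramp1* joins to bind CGRP, had too few UMIs to be compared, at 25.5, 14.8 and 24.7 CPM with a UMI in 9, 8 and 10 cells.

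The matrix list was mixed, with 7 of 22 genes higher in the high range and 5 lower. *Thbs1*, thrombospondin 1, which activates latent TGF-β, stood at 113, 522 and 1294 CPM (log2 ratio 3.51). *Eln*, elastin, and *Lox*, which crosslinks it, had log2 ratios of 2.65 and 3.33. *Mgp*, an inhibitor of calcification, was lower in the high range (-5.16). The low-range cell with the most *Mgp* UMIs held 137 of 622, and without it the ratio was -4.83. *Dcn* was higher in pooled UMIs (1.44), but 4 alternatives brought it under 2-fold, with values from 0.46 to 0.82. A single cell held 253 of the 328 *Dcn* UMIs of the high range, and without it the ratio turned to -0.60. *Col1a1* was lower (-1.08), and 4 alternatives brought it to between -0.65 and -0.89.

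*Timp4*, an inhibitor of metalloproteinases found in the vasculature, stood at 1.42, 33.7 and 355 CPM with a UMI in 1, 8 and 15 cells (log2 ratio 7.97, interval 5.48 to 13.28). Of the TGF-β and BMP list 4 of 8 genes were higher in the high range and none was lower, namely *Id1*, *Id2*, *Tgfb2* and *Tgfb3*. *Tgfb3* stood at 12.8, 48.5 and 247 CPM, with a UMI in 5, 18 and 27 cells. Of immediate early and stress genes 4 of 21 were higher in the high range and none was lower. For 2 of them the call did not hold throughout: without the cell with the most UMIs of the gene, *Hspa1b* went from 1.27 to 0.62 and *Gadd45b* from 1.03 to 0.91. *Hspb1*, a small heat shock protein that binds actin and 1 of these, stood at 332, 536 and 2060.1 CPM (log2 ratio 2.63).

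Chemokine genes lay toward the low range. Of 10 compared, 6 were lower in the high range and none was higher in pooled UMIs (median -1.51). *Cxcl5* stood at 846, 704 and 7.81 CPM with a UMI in 16, 12 and 2 cells (log2 ratio -6.76). *Il11* stood at 355, 112 and 33.8 CPM (log2 ratio -3.39). The same low-range cell held 374 of the 596 low-range UMIs of *Cxcl5* and 153 of the 250 of *Il11*. Without it the low range stood at 330 CPM of *Cxcl5* and 144 CPM of *Il11*, and the ratios were -5.40 and -2.09. The log2 ratio of *Ccl2* was -1.23, and -0.25 when the cells were divided in 2 equal parts or -0.68 without the cell with the most *Ccl2* UMIs. Without the cell with the most *Cxcl2* UMIs, which lay in the low range, the ratio of *Cxcl2* went from -0.03 to 1.20. *Cxcl1* did not share this order, with a log2 ratio of -0.15 (interval -0.26 to -0.03). Of the receptors, *Il1r1* stood at 475, 319 and 117 CPM (log2 ratio -2.02).

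Of 10 compared cell cycle genes, *Mki67*, *Top2a* and *Tyms* were lower in the high range and none was higher. After thinning, 31.0% of low-range, 9.68% of middle-range and 13.3% of high-range cells held a *Mki67* or *Top2a* UMI, and at full depth the shares were 45.2% in the low range, 32.3% in the middle range and 6 of 30 cells in the high range. For *Mki67* 4 alternatives brought the ratio of -1.02 to between -0.71 and -0.96, and for *Tyms* the ratio of -1.30 was -0.74 with each cell weighted equally. Without the cell with the most UMIs of each gene, the ratio was -0.44 for *Mki67* and -0.93 for *Top2a* (-1.40 with it), whereas that of *Cdk1*, a kinase of mitosis, went from -0.82 to -1.92. No gene of 9 compared mural transcription factors passed 2-fold between the ranges (median 0.04), and *Myocd* stood at 18.4, 40.0 and 111 CPM with too few UMIs to be among them.

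By size alone, the 10 genes with the highest ratios of the high over the low range were *Timp4*, *P2rx1*, *Fbxl22*, *Map3k7cl*, *Tgfb3*, *Pdlim3*, *Actg2*, *Myom1*, *Thbs1* and *Sorbs2*, with *Fbxl22*, *Pdlim3* and *Sorbs2* known from the contractile apparatus of muscle. The order of *Timp4* and *P2rx1* is not settled, since *Timp4* had 1 UMI in the low range and *P2rx1* had 0 and stands at its bound. The 10 lowest were *Cxcl5*, *Mgp*, *Kcnj8*, *Cygb*, *Abcc9*, *Il11*, *Slc7a2*, *Ifitm1*, *Ly6a* and *Ednrb*. Leaving out the cell with the most UMIs of each gene gave -2.09 for *Il11*, -2.43 for *Ly6a* and -2.70 for *Ednrb*. The same step gave -2.84 for *Cxcl12*, which is not among the 10, so the places of these genes are not settled. *Cygb*, a globin of stellate cells and pericytes, stood at 211, 111 and 16.9 CPM. *Slc7a2*, a transporter of arginine, stood at 165, 82.2 and 18.2 CPM. *Ifitm1* stood at 817, 471 and 91.1 CPM, and also at 4348 CPM in neutrophils of the library.

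**Figure D5:**
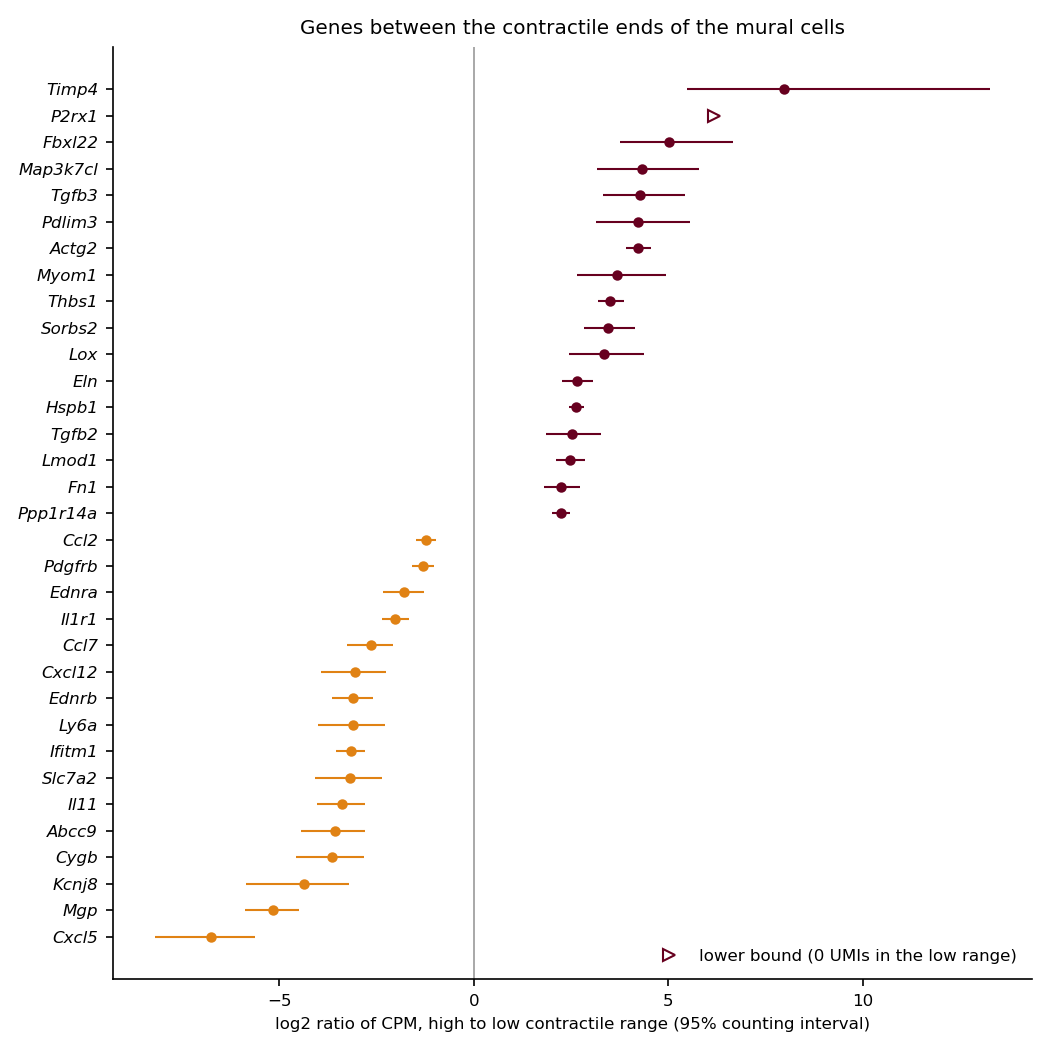
Log2 CPM ratio of named genes between the high and the low contractile range of mural cells, with 95% counting intervals; the open triangle is a lower bound. Positive values mean higher in the high range; the values run from *Timp4* at 7.97 to *Cxcl5* at -6.76.

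Markers of other cell types were measured in the same 92 cells, in which the rule itself fixed *Ptprc*, *Cdh5* and *Pdgfra* at 0. Leukocyte markers summed to 94.1 CPM over 15 genes, 12 of them with a UMI, against 113419 CPM in neutrophils, with *Lyz2* the most abundant at 19.4 CPM and *Cd3e* and *Csf3r* also at 0. Endothelial markers summed to 245 CPM with 8 of 14 present, *Esam* the most abundant at 142 CPM and *Cldn5*, *Tek*, *Kdr*, *Sox17* and *Sox18* also at 0. *Esam* is an adhesion molecule that pericytes are also known to carry. *Ecscr* came next, with 176 UMIs in 40 mural cells, 16 of the low, 16 of the middle and 8 of the high range. The same endothelial list summed to 6672 CPM in endothelial cells, 76.7 CPM in fibroblasts and 14.7 CPM in neutrophils. Fibroblast markers summed to 2858 CPM, most of it *Col1a1* at 1874 CPM, with *Dpp4* and *Cd34* also at 0. Skeletal muscle and satellite cell markers summed to 556 CPM, of which *Des* made 534 CPM, with *Pax7*, *Myf5*, *Myod1* and *Myog* at 0. Schwann cell markers summed to 229 CPM, of which *Pmp22* made 197 CPM, with *Sox10* at 0. Keratinocyte markers summed to 36.7 CPM, and adipocyte and red cell markers to 21.9 CPM. From the low to the high contractile range, fibroblast markers summed to 3481, 2768 and 2397 CPM, endothelial markers to 231, 241 and 263 CPM and leukocyte markers to 92.2, 116 and 69.0 CPM. Of 4 compared fibroblast markers, *Ly6a* was lower in the high range, *Col1a1* was lower and *Dcn* higher in pooled UMIs with the exceptions given above for the matrix list, and *Gsn* was within 2-fold (log2 ratio 0.90), with a median of -0.09. The part of free RNA and of mixed droplets in the genes named above was not tested.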

How the data were processed

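The authors deposited raw UMI counts per gene and cell for 27998 genes, not normalized, made with Cell Ranger 5.0.1 on mm10 according to the submitters' processing notes. Handling of introns and removal of free RNA or doublets before deposit were not given in the sources used here. The mural rule, the gene lists and the comparisons were chosen with earlier results of these data known.

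Cells with at least 200 genes and at most 20% mitochondrial UMIs were kept. UMIs were summed over the cells of a group and divided by all UMIs of the group (CPM). The 95% intervals were exact Poisson for levels and Clopper-Pearson for shares, and for ratios they came from the binomial split of the UMIs between both groups. These intervals cover counting error only. The upper limits printed for bone marrow and blood, where no cell met the rule, were not Clopper-Pearson limits. Each was 3 divided by the number of cells that passed the filter in that library. A ratio against 0 UMIs used a floor of 3 counts over the group. Shares of cells were taken after random thinning to 2000 UMIs per cell. Doublets were scored with Scrublet in scanpy 1.11.5 and removed only as an alternative. The genes named were the marker and rule genes, the members of each list with the most UMIs or the largest ratios, and the leading 15 genes (mural against both groups, by the smaller ratio) and 10 genes in each direction (contractile ranges) among genes with at least 100 UMIs in mural cells and a UMI in at least 20% of them. The list members printed are a selection from that rule. Pooled counts of each group were also simulated as Poisson draws with 200 changed genes and without any variation between cells. The intervals covered the true ratio for 96.5% of changed genes in the endothelial comparison (7117 genes) and 94% in the fibroblast comparison (9719 genes). The share was 96.5% in the comparison of ranges (1963 genes). The intervals assume that same counting model, so these shares check the calculation only and not the coverage in real cells. Gene positions were from GENCODE M21 on GRCm38 and promoters from RefSeq on GRCm38.p6. Python 3.11.15, numpy 2.4.6, scipy 1.17.1, pandas 2.3.3 and matplotlib 3.10.9 were used.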

Additional observations from a re-analysis of the deposited data

How the results depend on the processing

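The number of mural cells ran from 80 (at least 500 genes and at most 10% mitochondrial UMIs) to 98 (a rule sum of at least 5 UMIs, or up to 1 UMI of each excluded gene). With a minimum of 20 in place of 100 UMIs over both groups, which compares more genes, 1300 genes were higher and 1909 lower than in endothelial cells, 1285 were higher than in fibroblasts, and 396 were higher and 706 lower in the high than in the low contractile range. With cells ordered by *Myh11* alone 221 genes were lower in the high range; the cause was not tested. Of the 16 alternatives, 2 bear only on shares of thinned cells, and all other counts stayed within 1.5 times the value given under each alternative that bears on them. With thinning to 1000 and to 5000 UMIs, the share of mural cells with a UMI was 26.1% and 72.4% for *Des*, 29.3% and 79.3% for *Notch3*, 16.3% and 41.4% for *Kcnj8* or *Abcc9*, 57.6% and 82.8% for *Cxcl1*, 11 of 92 cells and 19.5% for *Cxcl5*, 21.7% and 58.6% for *Il6*, 95.7% and all cells for *Acta2*, and 13.0% and 24.1% for *Mki67* or *Top2a*. The last share lay above that of endothelial cells at 1000 UMIs (10.9%) and below it at 5000 UMIs (28.5%). One more alternative, chosen after seeing the data, left out for each gene the mural cell with the most of its UMIs. Of 11373 ratios of named and listed genes recomputed with it included, 10360 moved by less than their counting interval, 1011 moved by more, and 2 that were past 2-fold changed sign, both between the ranges: *Rgs4* (-0.30 with each cell weighted equally; the cause was not tested) and *Dcn* (-0.60 without its top cell). With cells ordered by *Myh11* alone, 125 of 188 ratios between the ranges moved by more than their interval. With each cell weighted equally, 327 of 935 ratios did. The 935 ratios under the minimum of 20 UMIs could not move, since that minimum does not enter a gene's own ratio. Of 527 ratios past 2-fold, 58 came under it in at least 1 alternative, 22 of them among the 73 between the ranges. No paired analysis was possible because each tissue had 1 library. Precision was limited by the 92 cells of a single library, by low-range cells as shallow as 1113 UMIs and by genes of which 3 cells held most UMIs.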

Other observations

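The 65 cells left out for a *Cdh5* UMI formed the largest group that reached the sum of rule genes without being counted as mural. Their median depth was 32728 UMIs, and 46 of the 164 cells that reached the sum held at least 10 *Cdh5* UMIs, so few were left out over a single molecule (4 cells held exactly 1). They stood at 1490 CPM of *Rgs5* and 163 CPM of *Notch3*, beside 653 CPM of *Cdh5* and 543 CPM of *Pecam1*. *Acta2* was at 1674 CPM, between the 12322 CPM of mural cells and the 73.3 CPM of endothelial cells, and 47 of the 65 cells held a *Myh11* UMI. Whether these are droplets with an endothelial and a mural cell was not tested.

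Genes of the tendon and skeletal lineages were mostly scarce in mural cells 3 days after injury. Against fibroblasts 1 of 10 compared was higher and 6 were lower (median log2 ratio -2.18), and against endothelial cells 1 of 2 was higher and none was lower. The member higher than in both was *Msx1*, a homeobox factor of limb and bone progenitors, at 27.7 CPM against 10.1 CPM in endothelial cells and 9.44 CPM in fibroblasts. *Scx*, the tendon transcription factor, *Sp7*, the osteoblast factor, and *Bglap* and *Ibsp*, bone matrix genes, were at 0 UMIs, and *Tnmd*, tenomodulin of mature tendon, stood at 11.1 CPM. *Egr1*, an immediate early gene that also acts in tendon, was the most abundant of the list at 396 CPM.

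The endothelial comparison cells held *Myog*, a factor of muscle differentiation, at 55.1 CPM and *Hbb-bs*, a globin of red cells, at 292 CPM, against 0 UMIs of *Myog* and 0 CPM of *Hbb-bs* in mural cells.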
